A study of Rattus norvegicus with 24 samples.

Results

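Signalling through adrenergic receptors and protein kinase A (PKA) was followed with 9 genes. The 9 were chosen by symbol, with earlier results of these data known. They encode 3 receptors for adrenaline and noradrenaline (Adrb1, Adra1a and Adra1b), 2 adenylyl cyclases (Adcy5 and Adcy6), 2 PKA subunits (the catalytic Prkaca and the regulatory Prkar1a) and 2 PKA inhibitor peptides (Pkia and Pkig). All 9 were listed in each of the 4 deposited tables, and these tables list 10797 genes.

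The libraries were made from total RNA of the myocardium of Sprague-Dawley rats. In the mitral regurgitation (MR) groups a mitral leaflet had been perforated through a left thoracotomy, so that the valve leaked, and the rats were followed for 2 weeks (4 libraries), 10 weeks (5 libraries), 20 weeks (5 libraries) or 40 weeks (5 libraries). Sham rats had surgery in which the leaflet was left whole, and their 5 libraries date from 2 weeks. The same 5 Sham libraries stand against every MR time, so that at the 3 later times the duration of MR, age and handling at collection cannot be told apart. The labels give neither sex, age, batch nor heart chamber, and do not state that every library is a different rat, so p-values here measure the spread between libraries. Each library had 7.69 to 12.1 M reads on listed genes.

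In the heart, noradrenaline and adrenaline act on the beta-1 receptor, which couples through the G protein Gs to adenylyl cyclase. The cyclic AMP that the cyclase makes binds the regulatory subunits of PKA and frees its catalytic subunits, which phosphorylate calcium-handling and sarcomere proteins and so raise the rate and force of the beat. The inhibitor peptides bind free catalytic subunits and block them, while alpha-1 receptors signal by another route, through Gq and phospholipase C. Loss of beta-1 receptors and of their response is a known feature of failing human hearts.

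Promoter windows of RefSeq (build GRCr8), which run from 250 bases before to 50 bases after an annotated start, were at hand for 6 of the 9 genes, in 8 windows of which 3 belong to Pkig. Of the 5 genes called higher in MR at 40 weeks, Adrb1, Adcy5 and Prkar1a had a window, and Adra1a and Pkia had none. The windows of these 3 genes and 1 of Pkig, which was lower, are printed 5′ to 3′ on the strand of the gene. They are Adrb1 at chr1:265776853-265777152 (plus strand), Adcy5 at chr11:79123294-79123593 (minus strand), Prkar1a at chr10:95120287-95120586 (plus strand) and the first Pkig window at chr3:172749665-172749964 (plus strand). Capitals mark TGACG, the core of the cyclic AMP response element, and the GC box GGGCGG, each on either strand.
Adrb1: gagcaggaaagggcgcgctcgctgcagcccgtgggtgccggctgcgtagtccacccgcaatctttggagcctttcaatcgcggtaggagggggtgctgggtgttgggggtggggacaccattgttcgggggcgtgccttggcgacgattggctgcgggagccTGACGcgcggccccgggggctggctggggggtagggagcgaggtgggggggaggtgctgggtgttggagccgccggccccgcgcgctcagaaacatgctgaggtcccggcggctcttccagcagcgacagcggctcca
Adcy5: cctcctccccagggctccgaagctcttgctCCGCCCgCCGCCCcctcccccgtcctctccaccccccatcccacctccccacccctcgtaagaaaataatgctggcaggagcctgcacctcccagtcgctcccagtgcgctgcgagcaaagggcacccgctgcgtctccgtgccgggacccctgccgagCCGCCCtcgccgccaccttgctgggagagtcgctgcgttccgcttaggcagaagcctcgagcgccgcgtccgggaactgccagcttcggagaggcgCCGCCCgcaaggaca
Prkar1a: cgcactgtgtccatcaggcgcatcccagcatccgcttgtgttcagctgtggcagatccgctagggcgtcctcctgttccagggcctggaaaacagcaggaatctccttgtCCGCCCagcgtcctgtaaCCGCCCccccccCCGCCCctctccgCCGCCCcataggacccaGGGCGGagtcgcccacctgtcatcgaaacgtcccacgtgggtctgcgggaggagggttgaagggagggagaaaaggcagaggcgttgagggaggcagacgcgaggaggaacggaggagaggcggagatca
Pkig: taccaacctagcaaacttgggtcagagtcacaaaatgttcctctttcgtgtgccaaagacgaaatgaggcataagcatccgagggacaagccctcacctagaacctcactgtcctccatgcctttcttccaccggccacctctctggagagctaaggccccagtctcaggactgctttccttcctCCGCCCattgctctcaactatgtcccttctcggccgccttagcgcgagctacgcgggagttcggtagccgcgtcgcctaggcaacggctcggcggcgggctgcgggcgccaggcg
The full element TGACGTCA was in 0 of the 8 windows, against 1.83% of all 33469 promoter windows of the same length. TGACG, which also lies within the full element, was in 3 of the 8 windows (21.2% of all windows), and GGGCGG was in 5 of the 8 (33.1% of all windows). These letters are a description of the windows and say nothing about which factors bind there.

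Values below are scaled counts, that is reads per gene divided by 1 factor per library. For levels, the 24 libraries were put on a joined scale, on which the median ratio between libraries is 1. Each comparison with Sham was tested within its own table on log2(value + 1) with limma, and a gene was called when its p, adjusted by the Benjamini-Hochberg method over all genes tested, was under 0.05. A log2 fold change on that scale understates the change of a gene with low values, such as Adrb1 and Adra1a.

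At 40 weeks 7 of the 9 genes were called against Sham, where 47.3% of the 10094 genes tested were called. Adrb1, Adra1a, Adcy5, Pkia and Prkar1a rose, and Adcy6 and Pkig fell, beside 16.3% of all genes called higher and 30.9% called lower. Pkia had the largest fold change of the 9, and Adra1b and Prkaca were not called. No library of MR at 40 weeks overlapped a Sham library in 6 of the 9 genes, against 29.2% of all genes tested. In bulk tissue, fewer cells of a type and less RNA per cell cannot be told apart.

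**Figure D1:**
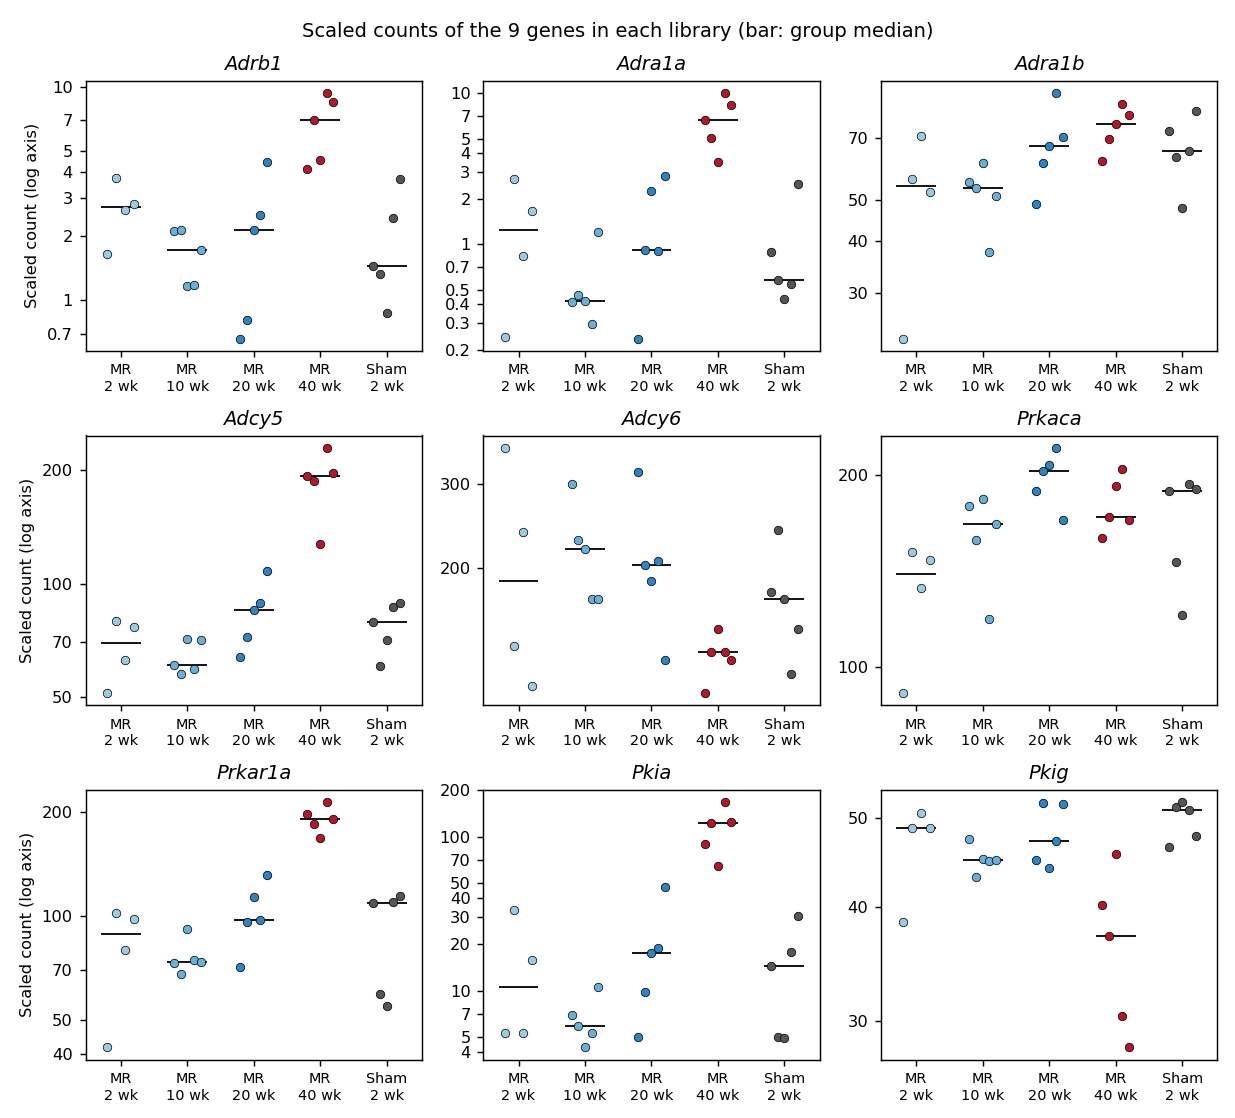
Scaled count on the joined scale (vertical log axis) of each of the 9 genes in each library (points), by group, with the group median as a bar. In MR at 40 weeks every library is above every Sham library for Adrb1, Adra1a, Adcy5, Prkar1a and Pkia and below every Sham library for Pkig, while Adcy6, Adra1b and Prkaca overlap Sham.

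Earlier times gave no call by limma: 0 of 9 genes at 2 weeks (0.0% of all genes tested), 0 of 8 genes at 10 weeks (0.168%) and 0 of 9 genes at 20 weeks (0.0698%). Adra1a was not tested at 10 weeks because its mean over that table was under 1. At an unadjusted p under 0.05 the counts were 0 of 9, 1 of 8 and 0 of 9 at 2, 10 and 20 weeks, where 5.47%, 12% and 9.49% of all genes tested reached it, so that 1 of 8 is near the share of all genes. At each of these times edgeR and DESeq2 on recovered reads also called 0 of the 9. Over all genes tested, edgeR called 0, 8 and 8 and DESeq2 called 65, 85 and 93. The 1 of 8 at 10 weeks was Adcy6, with a log2 fold change of 0.42 ± 0.19 (SE) and an adjusted p of 0.397 by limma. The groups were separate in their own table for 1 of 9 genes at 2 weeks (2.16% of all genes tested), for 0 of 9 at 10 weeks (2.45%) and for 0 of 9 at 20 weeks (1.8%). That 1 gene was Pkig, at 38.5 to 50.3 in the MR libraries at 2 weeks and 50.5 to 57.3 in the Sham libraries (adjusted p = 0.842). Its separation was absent on the joined scale, where MR at 2 weeks spanned 38.5 to 50.7 and Sham 46.5 to 52.0.

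**Figure D2:**
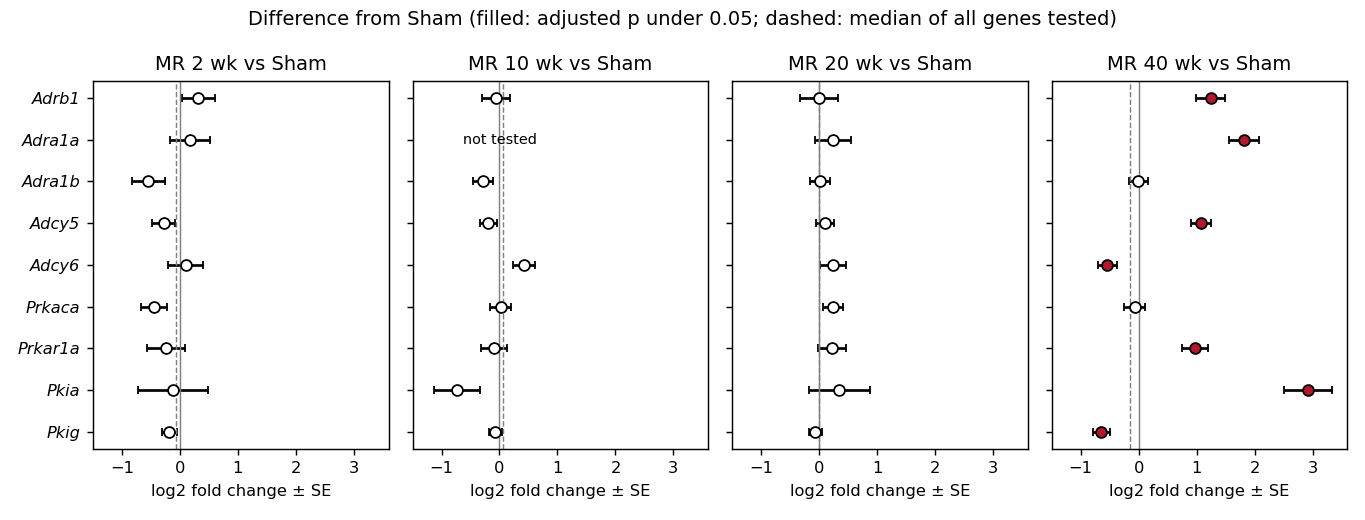
Log2 fold change of MR over Sham ± SE (horizontal axis) for each of the 9 genes at 2, 10, 20 and 40 weeks, with filled points for an adjusted p under 0.05 and a dashed line for the median of all genes tested. Filled points occur at 40 weeks and at no earlier time.

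The scale of the 40-week table matters for the smaller changes. On the deposited scale the median log2 fold change of all genes tested was -0.15, and 1648 genes were called higher and 3124 lower. After the libraries were rescaled by their median ratio it was -0.010, and 2391 genes were called higher and 2196 lower. In that fit 6 of the 9 genes were called, with 45.5% of all genes called (23.7% higher and 21.8% lower), and Adcy6 was the gene that lost its call.

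Among the receptors, Adrb1 encodes the beta-1 receptor and is listed on chromosome 1 of rn6 from 277537585 to 277538986 (plus strand). Its scaled counts were 1.64, 3.73, 2.65 and 2.83 in MR at 2 weeks, between 1.17 and 2.13 in MR at 10 weeks and between 0.663 and 4.44 in MR at 20 weeks. They were 4.11, 6.98, 4.52, 9.30 and 8.49 in MR at 40 weeks, against 1.45, 1.33, 0.869, 2.42 and 3.71 in Sham. Every library of MR at 40 weeks was above every Sham library, although the lowest of them was close to the highest Sham library and below the highest library of MR at 20 weeks. In the 40-week table Adrb1 averaged 5.91 ± 1.91 in MR and 2.00 ± 1.17 in Sham (SD, n = 5 each), a fold of 2.95, and its log2 fold change was 1.24 ± 0.25 (SE, adjusted p = 0.00162). These levels rest on few reads, 86 to 209 per library in MR at 40 weeks and 16 to 76 in Sham, and the fold change on recovered reads was larger, at 1.75 by edgeR on the log2 scale.

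Adra1a encodes the alpha-1A receptor, which couples to Gq, and is listed on chromosome 15 from 43299385 to 43392432 (plus strand). Its scaled counts were 6.59, 5.03, 3.51, 9.97 and 8.34 in MR at 40 weeks, against 0.880, 0.577, 0.435, 0.543 and 2.49 in Sham. The groups did not overlap, and the highest Sham library stood apart from the other Sham libraries. MR libraries of the earlier times lay between 0.237 and 2.81. The mean in the 40-week table was 5.93 ± 2.20 in MR and 1.001 ± 0.863 in Sham (SD, n = 5 each), which is a fold of 5.92, and the log2 fold change was 1.82 ± 0.26 (SE, adjusted p = 0.000259). Reads per library were 80 to 224 in MR at 40 weeks and 8 to 51 in Sham, and edgeR put the log2 fold change at 2.74.

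Adra1b encodes the alpha-1B receptor, also coupled to Gq, and is listed on chromosome 10 from 29392762 to 29450645 (minus strand). It showed no such difference: it had 61.7, 69.6, 75.9, 84.2 and 79.4 scaled counts in MR at 40 weeks, against 72.7, 63.2, 47.9, 65.3 and 81.3 in Sham. The groups overlapped widely, with a log2 fold change of -0.0047 ± 0.16 (SE, adjusted p = 0.984) on the deposited scale and 0.15 (adjusted p = 0.407) after median-ratio rescaling. The lowest value was 23.4, in replicate 1 of MR at 2 weeks.

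Of the cyclases, Adcy5 and Adcy6 are the main forms of the heart muscle cell, and both are inhibited by calcium. Adcy5 (chromosome 11, 68695839 to 68842321, minus strand) had 193, 188, 128, 230 and 197 scaled counts in MR at 40 weeks, against 79.4, 60.4, 70.8, 86.8 and 89.1 in Sham. Even the lowest library of MR at 40 weeks was above every other library of the series, since the earlier MR libraries lay between 51.3 and 108. The fold of the means in the 40-week table was 2.11, with 166 ± 31.7 in MR and 78.8 ± 15 in Sham (SD, n = 5 each), and the log2 fold change was 1.07 ± 0.17 (SE, adjusted p = 0.000402).

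Adcy6 (chromosome 7, 140270692 to 140291621, minus strand) moved the other way. It had 110, 134, 150, 134 and 129 scaled counts in MR at 40 weeks, against 178, 241, 173, 121 and 150 in Sham. The ranges overlapped, and 4 of the 5 MR libraries of the 40-week table were below every Sham library, with means of 117 ± 15.1 in MR and 174 ± 41.3 in Sham (SD, n = 5 each). The log2 fold change was -0.54 ± 0.16 (SE, adjusted p = 0.0147) on the deposited scale and -0.39 (adjusted p = 0.0684) after median-ratio rescaling, both by limma. On recovered reads DESeq2 called Adcy6 and edgeR did not, so this call depends on the scale and on the test. Earlier MR libraries were widely spread, with 114 to 357 at 2 weeks, 173 to 299 at 10 weeks and 129 to 318 at 20 weeks.

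Prkaca (chromosome 19, 25095089 to 25118868, plus strand) encodes the main catalytic subunit of PKA. Its scaled counts were 159, 172, 192, 205 and 170 in MR at 40 weeks, against 189, 146, 120, 194 and 191 in Sham. The groups overlapped, and the log2 fold change was -0.069 ± 0.18 (SE, adjusted p = 0.766) on the deposited scale and 0.089 (adjusted p = 0.653) after rescaling. MR at 2 weeks was low, at 91.0, 151, 133 and 147, and MR at 20 weeks was higher than that in every library, at 189, 203, 208, 221 and 170.

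Prkar1a (chromosome 10, 97940705 to 97957337, plus strand) encodes the type I-alpha regulatory subunit, which holds the catalytic subunit inactive until cyclic AMP binds. Its scaled counts were 198, 185, 168, 214 and 191 in MR at 40 weeks, against 109, 59.4, 55.0, 110 and 114 in Sham. MR at 40 weeks was above every other library, while Sham held 3 libraries near 110 and 2 below 60, and earlier MR libraries lay between 41.6 and 132. Means in the 40-week table were 171 ± 16.3 in MR and 92.0 ± 33.9 in Sham (SD, n = 5 each), a fold of 1.85, and the log2 fold change was 0.97 ± 0.23 (SE, adjusted p = 0.00371).

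Pkia (chromosome 2, 96595088 to 96668223, minus strand) encodes the alpha inhibitor peptide, which is abundant in striated muscle. Its scaled counts were 5.31, 33.4, 5.30 and 15.8 in MR at 2 weeks, between 4.27 and 10.6 in MR at 10 weeks, and 5.02, 9.83, 17.6, 18.9 and 47.1 in MR at 20 weeks. They were 89.9, 122, 64.8, 167 and 125 in MR at 40 weeks, against 14.4, 5.01, 4.94, 17.9 and 30.6 in Sham. All libraries of MR at 40 weeks lay above every other library, and within Sham and within MR at 2 and 20 weeks the highest library was several times the lowest. The mean in the 40-week table was 101 ± 33.4 in MR and 15 ± 10.9 in Sham (SD, n = 5 each), a fold of 6.73, with a log2 fold change of 2.92 ± 0.42 (SE, adjusted p = 0.000245).

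Pkig (chromosome 3, 160047296 to 160115178, plus strand) encodes the gamma inhibitor peptide, which is made in many tissues. Its scaled counts were 40.2, 37.2, 45.7, 30.4 and 28.1 in MR at 40 weeks, against 46.5, 51.4, 52.0, 51.0 and 47.8 in Sham. Each library of MR at 40 weeks was below each Sham library, with the highest of MR just under the lowest of Sham on the joined scale. In the 40-week table the means were 32.6 ± 7.74 in MR and 50.4 ± 2.73 in Sham (SD, n = 5 each), a fold of 0.646. The log2 fold change was -0.64 ± 0.15 (SE, adjusted p = 0.00376), and it was -0.49 (adjusted p = 0.009) after rescaling.

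The MR times were also compared with each other on the joined scale. Since the same Sham libraries stand against every MR time, Sham drops out of such a contrast. It compares MR libraries of different times, and duration of MR, age and handling at collection cannot be told apart in it. MR at 40 weeks differed from MR at 2 weeks in 8 of 9 genes (45.7% of the 9984 genes tested), from MR at 10 weeks in 8 of 9 (54.2%) and from MR at 20 weeks in 6 of 9 (38.8%). EdgeR called 9, 8 and 7 of 9 in these contrasts, beside 4566, 5395 and 3917 of all 10125 genes tested. On the deposited scale 7 of 9 were called in each, beside 4654, 5845 and 3996 of all 9991 genes tested. Adrb1, Adra1a, Adcy5, Pkia and Prkar1a rose and Pkig fell against all 3 earlier times.

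For Pkia the log2 fold change of MR at 40 weeks was 3.15 over 2 weeks, then 3.90 over 10 weeks and 2.74 over 20 weeks, with adjusted p-values of 0.000107, 2.31e-06 and 0.000208. For Adcy5 they were 1.45 (adjusted p = 6.34e-06), 1.51 (2.56e-07) and 1.15 (1.34e-05) over 2, 10 and 20 weeks. Pkig fell by 0.37, 0.33 and 0.41 on the log2 scale against 2, 10 and 20 weeks (adjusted p = 0.0140, 0.0155 and 0.00529). Its call against 2 weeks was lost without replicate 5 of MR at 40 weeks (-0.28, adjusted p = 0.0522), and that against 10 weeks without replicate 4 (-0.27, adjusted p = 0.0550) or replicate 5 (-0.24, adjusted p = 0.0671) of MR at 40 weeks. Adcy6 fell by 0.71 against 10 weeks (adjusted p = 0.0203), and its fold changes of -0.55 against 2 weeks and -0.62 against 20 weeks missed the threshold (adjusted p = 0.0942 and 0.0538). Both were called by edgeR (-0.70 and -0.68, adjusted p = 0.0372 and 0.0401) and on the deposited scale (-0.71 and -0.77, adjusted p = 0.0295 and 0.0160). Without replicate 1 of MR at 10 weeks, the call of Adcy6 was lost (-0.59, adjusted p = 0.0649).

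Between the earlier MR times, 0 of 9 genes were called for 10 against 2 weeks (1.37% of all genes tested), 1 of 9 for 20 against 2 weeks (8.81%) and 0 of 9 for 20 against 10 weeks (0.01%). At an unadjusted p under 0.05 these counts were 0, 2 and 2 of 9, against 15.2%, 26.9% and 15.2% of all genes tested. EdgeR called 0, 1 and 0 of 9, beside 147, 838 and 1 of all 10125 genes tested. The 1 gene of the 9 was Prkaca, which rose by 0.62 ± 0.16 (SE, adjusted p = 0.0206) in MR at 20 weeks against MR at 2 weeks. Leaving out replicate 1 of MR at 2 weeks or replicate 4 of MR at 20 weeks ended that call (0.46 and 0.58, adjusted p = 0.0933 and 0.0545), which left 0 of 9 genes. Prkaca was also higher in MR at 40 weeks than in MR at 2 weeks, by 0.48 (adjusted p = 0.0185), though not without replicate 1 of MR at 2 weeks (0.32, adjusted p = 0.113). Adra1b, likewise, was higher in MR at 40 weeks than at 2 weeks by 0.64 (adjusted p = 0.0227) and than at 10 weeks by 0.53 (adjusted p = 0.0381), though both of these calls and that of Prkaca at 40 against 2 weeks were lost on the deposited scale. The call of Adra1b against 2 weeks was also lost without replicate 1 of MR at 2 weeks (0.31, adjusted p = 0.174) or replicate 4 of MR at 40 weeks (0.59, adjusted p = 0.0521). That against 10 weeks was lost in 7 of 10 fits that left out 1 library, those without replicate 2, 4 or 5 of MR at 10 weeks or without replicate 2, 3, 4 or 5 of MR at 40 weeks (0.42 to 0.55, adjusted p = 0.0503 to 0.113).

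Within-library ratios of reads do not depend on the scaling factor, and were computed after the levels had been seen. They are not divided by transcript length, so they show shifts between groups and not which gene is more abundant. The ratio of Adcy5 to Adcy6 reads was 1.45 ± 0.365 in MR at 40 weeks and 0.484 ± 0.180 in Sham (SD, n = 5 each), without overlap (0.851 to 1.75 in MR and 0.251 to 0.719 in Sham). The highest earlier MR library, at 20 weeks, reached 0.839. The ratio of Prkar1a to Prkaca reads was 1.07 ± 0.134 in MR at 40 weeks and 0.521 ± 0.0845 in Sham (SD, n = 5 each). For Pkia over Pkig it was 3.38 ± 1.64 in MR at 40 weeks and 0.299 ± 0.224 in Sham (SD, n = 5 each), and the lowest library of MR at 40 weeks, at 1.42, was above the highest of every other group. In MR at 40 weeks Pkia was above and Pkig below every Sham library on the joined scale. The separation of their ratio from Sham therefore follows from the levels.

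**Figure D3:**
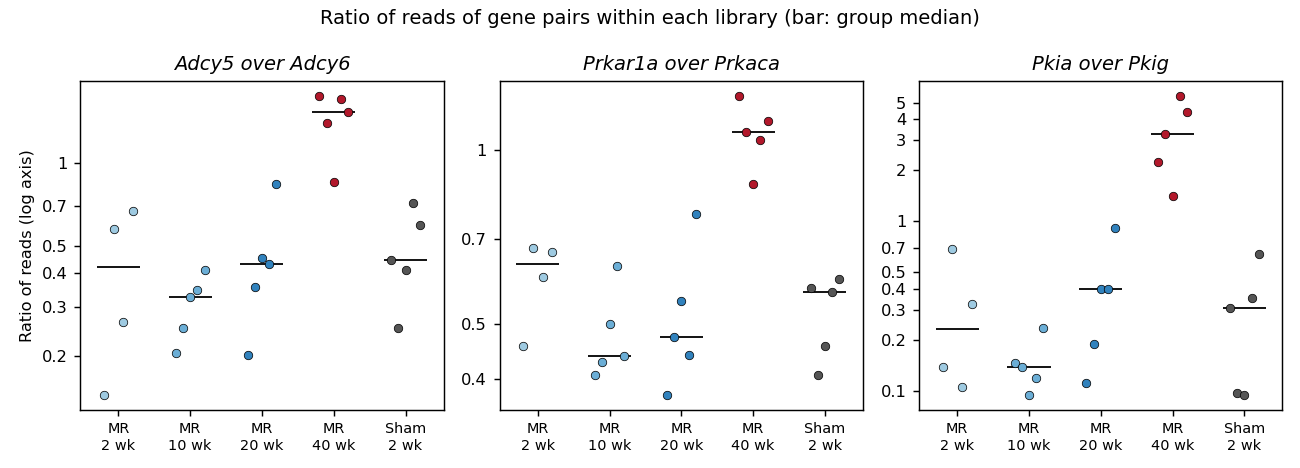
Ratio of reads within each library (vertical log axis) for Adcy5 over Adcy6, Prkar1a over Prkaca and Pkia over Pkig, by group, with the group median as a bar. In each of the 3 panels every library of MR at 40 weeks is above every library of the other groups.

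A list of 96 further genes of the pathway was set beside the 9. Like the 9, it was chosen with earlier results of these data known. At 40 weeks 80 of its genes were tested. Of these, 26 rose and 16 fell, with a median log2 fold change of 0.11, against 1648 rises, 3124 falls and a median of -0.15 over all genes tested. The 26 include Adra2c and Adcy1, whose Sham means were under 1. Both passed the filter of a mean of at least 1 through their MR libraries. After median-ratio rescaling the counts were 33 rises and 15 falls with a median of 0.26, against 2391, 2196 and -0.010 over all genes. At 2, 10 and 20 weeks limma called 0 of the further genes, with 6 of 78, 13 of 79 and 9 of 79 at an unadjusted p under 0.05, against 5.47%, 12% and 9.49% of all genes tested. EdgeR called 0 at each of these times, and DESeq2 called 1, 0 and 1. Those were Prkar1b at 2 weeks, which is not among the 78 genes that limma tested, and Adra2c at 20 weeks.

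Counts in the next sentences include the 9 genes where they belong to a list. Of 7 adrenergic receptors tested at 40 weeks, 3 rose and 1 fell. Adra2c, an alpha-2 receptor known for restraining noradrenaline release at nerve endings, had 6.45 ± 4.58 scaled counts in MR and 0.507 ± 0.271 in Sham (SD, n = 5 each), with a log2 fold change of 2.07 (adjusted p = 0.000763). With a Sham mean under 1, Adra2c passed the filter of a mean of at least 1 through its MR libraries. Its rise, counted among the 3, is limited by this, and it was not tested at 2 and 10 weeks. Adra2b, another alpha-2 receptor, fell (log2 fold change -0.67, adjusted p = 0.0196).

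Of 15 G protein subunits 5 rose and 3 fell, 6 and 2 after rescaling. Those that rose were Gnao1 (log2 fold change 1.69), Gna13 (0.96), Gnaq (0.80), Gna11 (0.77) and Gna12 (0.76), and thus both alpha subunits of the Gq class in the list. Gnas, which encodes Gs-alpha, had 287 ± 37.6 scaled counts in MR and 373 ± 23.2 in Sham (SD, n = 5 each) and fell by 0.39 (adjusted p = 0.0293), a call that was lost after rescaling (-0.23, adjusted p = 0.141). Gng2, a gamma subunit, fell by 0.77 (adjusted p = 0.00166).

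Of 6 adenylyl cyclases 2 rose and 2 fell, and 1 fell after rescaling. Adcy1, a cyclase stimulated by calcium and calmodulin, had 8.85 ± 5.42 scaled counts in MR and 0.495 ± 0.212 in Sham (SD, n = 5 each), a log2 fold change of 2.54 (adjusted p = 0.000165). Adcy1, too, had a Sham mean under 1 and passed the filter through its MR libraries, which limits its rise, counted among the 2. At 2, 10 and 20 weeks it was not tested. Adcy4 fell by 0.77 (adjusted p = 0.00451).

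Of 6 PKA subunits 3 rose and 0 fell. Besides Prkar1a these were Prkar2a, the type II-alpha regulatory subunit, at 15.6 ± 5.85 in MR and 2.56 ± 0.631 in Sham (SD, n = 5 each, log2 fold change 2.15, adjusted p = 0.00013), and Prkacb, the beta catalytic subunit, at 4.20 ± 1.31 in MR and 1.12 ± 0.236 in Sham (SD, n = 5 each, log2 fold change 1.26, adjusted p = 0.000275).

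Of 11 A-kinase anchoring proteins, which hold PKA at its targets, 5 rose and 2 fell, 6 and 2 after rescaling, and their median was 0.41. Akap6, which anchors PKA at the nuclear envelope of heart muscle cells, had 93.1 ± 31.0 in MR and 21.4 ± 7.58 in Sham (SD, n = 5 each, log2 fold change 2.07, adjusted p = 0.000182). The other rises were Akap1, Akap2, Akap7 and Akap13, and the falls were the nuclear Akap8 and Akap8l. Of 15 PKA substrates and phosphatase genes 6 rose and 2 fell, 8 and 2 after rescaling. Tnni3, the cardiac troponin I that PKA phosphorylates, had 1676 ± 383 in MR and 4208 ± 551 in Sham (SD, n = 5 each) and fell by 1.35 (adjusted p = 0.000343). Ryr2, the calcium release channel, rose by 1.12 (adjusted p = 0.00116), and Pln, which encodes phospholamban, averaged 1731 ± 314 in MR and 1801 ± 397 in Sham (SD, n = 5 each, adjusted p = 0.863).

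Of 10 genes of receptor desensitisation 3 rose and 4 fell, 4 and 4 after rescaling. Arrb1, a beta-arrestin, rose by 1.06 (adjusted p = 0.000475) and Arrb2, the other one, fell by 0.65 (adjusted p = 0.00436). Grk6, a receptor kinase, fell by 0.80 (adjusted p = 0.000597), while Grk2, the receptor kinase best known for beta-1 receptors, averaged 23.1 ± 1.53 in MR and 24.4 ± 2.63 in Sham (SD, n = 5 each, adjusted p = 0.618). Of 7 other cyclic AMP effectors 1 rose and 2 fell. The falls were Rapgef3, a cyclic AMP-activated exchange factor (log2 fold change -0.85, adjusted p = 0.00127), and Crtc2, a CREB coactivator (-0.81, adjusted p = 0.00149). Of 10 genes of alpha-1 receptor signalling 2 rose and 1 fell, 4 and 1 after rescaling, and Prkce, a protein kinase C, rose by 2.20 (adjusted p = 0.000245).

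**Figure D4:**
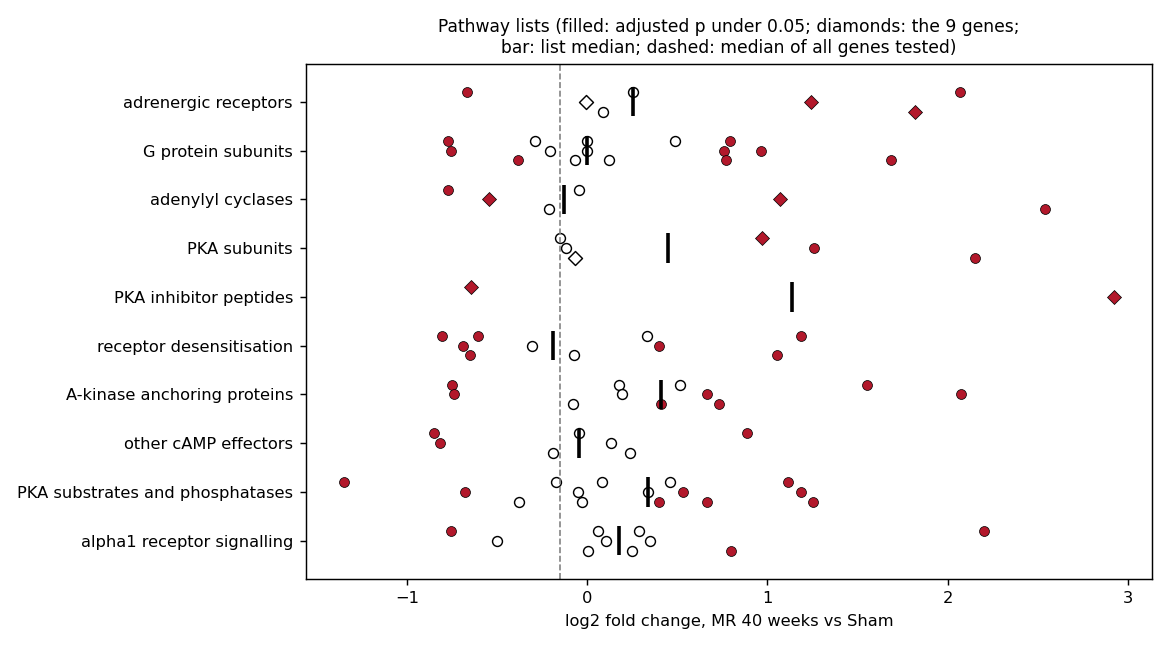
Log2 fold change of MR at 40 weeks over Sham (horizontal axis) for each tested gene of the 10 pathway lists, with filled points for an adjusted p under 0.05, diamonds for the 9 genes, a bar for the median of the list and a dashed line for the median of all genes tested. Rises and falls occur together in all lists but the PKA subunits, where 3 rose and 0 fell.

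The genes whose pattern over the 24 libraries was nearest to that of each called gene were found by the mean absolute difference of log2 values, each less its own Sham mean, among 10128 genes. For Adrb1 these were Kpnb1 (0.184), Zhx2 and Kpna4. For Adra1a they were Lman1 (0.209), Slmap and Tecrl, and for Adcy5 Snx27 (0.118), Tp53inp2 and Tab2. For Adcy6 they were Daxx (0.152), Slc38a3 and Slc4a11, and for Prkar1a Plekhb2 (0.112), Rnf10 and Nploc4. For Pkia they were Cavin4 (0.260), Ogdh and Nipsnap2, and for Pkig Cdk5rap3 (0.106), Txn1 and Trir.

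Marker genes of the tissue were high in all groups: the summed level of 8 of 8 cardiomyocyte markers ran from 30254 to 45880 in MR at 40 weeks and from 40645 to 47179 in Sham. Tnni3, Ryr2 and Pln are in this list as well as in that of PKA substrates. Summed fibroblast markers (7 of 7 listed) ran from 716 to 1044 in MR at 40 weeks and from 908 to 2667 in Sham, and endothelial markers (7 of 7) from 546 to 744 in MR at 40 weeks and from 558 to 806 in Sham. Those of smooth muscle and pericytes (8 of 8) ran from 156 to 331 in MR at 40 weeks and from 161 to 525 in Sham, and those of macrophages (7 of 7) from 31.5 to 75.4 in MR at 40 weeks and from 51.4 to 110 in Sham. Erythroid markers (4 of 4) ran from 604 to 6794 in MR at 40 weeks and from 1343 to 15003 in Sham, atrial markers (3 of 4) from 85.7 to 2008 in MR at 40 weeks and from 104 to 511 in Sham, and neuron and Schwann cell markers (4 of 7) from 14.3 to 118 in MR at 40 weeks and from 12.8 to 51.3 in Sham. All of these sums overlapped between the groups, but some single markers did not. Of the 52 markers listed, 5 were higher and 7 lower in every library of MR at 40 weeks than in every Sham library on the joined scale, and 27.5% of all genes were separate on that scale. Those higher were Actc1 (6665 to 8228 in MR at 40 weeks and 3003 to 5873 in Sham), Ryr2, Pdgfra, Cdh5 (77.0 to 112 in MR at 40 weeks and 36.3 to 71.2 in Sham) and Notch3. Those lower were Tnnt2 (5095 to 7013 in MR at 40 weeks and 7124 to 7932 in Sham), Tnni3, Myl3, Egfl7 (25.7 to 49.3 in MR at 40 weeks and 62.5 to 109 in Sham), Cd68, Ptprc and Fabp4. Among the deposited 40-week values, 3 markers were higher and 11 lower, without Actc1 and Cdh5 among the higher. The sum of adipocyte markers (3 of 6 listed, without Adipoq, Plin1 and Lep) was 200 to 323 in MR at 40 weeks and 355 to 592 in Sham. Of these 3 markers only Fabp4 was separate. Cfd (2.27 to 4.45 in MR at 40 weeks and 3.37 to 7.71 in Sham) and Lipe (49.9 to 79.1 and 52.4 to 109) overlapped. Ptprc, the 1 of 6 lymphocyte markers listed, was lower in every library of MR at 40 weeks, at 7.50 to 7.94 against 9.78 to 11.5. The part of the markers in the changes of the 9 genes was not tested.

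The change at 40 weeks also moved with the length of the gene as listed on rn6, a comparison added after the values had been seen. After median-ratio rescaling, the median log2 fold change was 0.20 for the longest of 4 equal groups of genes (spans of 50316 bases or more) and -0.25 for the shortest (spans of up to 8675 bases). At 2, 10 and 20 weeks these medians were 0.038 and -0.067, -0.038 and 0.0059, and -0.015 and 0.0044, longest first. Per library, the centred level of the longest group less that of the shortest was 0.11 to 0.56 on the log2 scale in MR at 40 weeks and -0.20 to -0.012 in Sham. Adra1a, Adra1b, Adcy5, Pkia and Pkig are in the longest group. Adcy6 and Prkaca are in the second longest, Prkar1a is in the second shortest, and Adrb1, at 1402 bases, is in the shortest. The part of gene length in the changes of the 9 genes was not tested.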

How the data were processed

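Total RNA of rat myocardium was sequenced on an Illumina instrument per the labels' protocols. The submitters' processing notes name Partek and the genome build rn6. Aligner, annotation, counting rule, strand setting and scaling were not given in the sources used here. Deposited by the authors were 4 tables, each with 1 MR time beside the same 5 Sham libraries, as a signal: linear scaled gene counts per library. Undoing 1 factor per library left 97.3% to 97.7% of a library's values within 0.1 read of a whole read. Whether the listed start positions count from 0 or 1 is not stated.

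Each MR time was tested against Sham in its own table with limma 3.58.1 (R 4.3.3) on log2(deposited value + 1) with a mean trend, for genes with a mean of at least 1, two-sided, with Benjamini-Hochberg adjustment at 0.05. MR times were compared in 1 limma fit of all 24 libraries, each rescaled by its median ratio to the gene-wise geometric mean, with Sham taken from the 2-week table. The alternatives were pseudocounts of 0.1 and 5, no filter or a mean of at least 10, median-ratio and TMM rescaling, array weights, a joint fit, edgeR 4.0.16 and DESeq2 1.42.0 on recovered reads, and leaving out each library. Only the limma fits against Sham were tested on simulated data, with 1 fixed spread for all genes. That test cannot show how they do on genes as widely spread as Adra1a or Pkia.

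Groups come from the labels; replicate numbers only name libraries. The 9 genes, the pathway lists, the marker lists and the tests were chosen with earlier results of these data known. Beyond the 9 genes, those named by rule are up to 6 rises and 6 falls of the pathway lists with the largest change, called and without overlap, and the 3 genes nearest in pattern to each called gene. Other pathway genes were named after their values were seen. Promoter windows are from RefSeq (GRCr8), and searches for motifs covered both strands.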

Additional observations from a re-analysis of the deposited data

Results flagged for a closer look

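A library stood apart from the rest of its group in 4 of 45 groups tested by the gap to its neighbour over the range of the group, on the joined scale. Chance alone marks about 1 in 20 such groups. Adra1a was high in replicate 5 of MR at 10 weeks, at 1.2 with the next library at 0.462, and in replicate 5 of Sham, at 2.49 with the next at 0.880. Prkar1a was high in replicate 3 of MR at 10 weeks, at 91.7 with the next at 74.8. Pkig was low in replicate 1 of MR at 2 weeks, at 38.5 with the next at 48.8.

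MR times differed from each other by the test of the contrast itself, in which duration of MR, age and handling at collection cannot be told apart. For MR at 40 weeks over MR at 2 weeks, the log2 fold changes were 1.02 for Adrb1, 1.75 for Adra1a, 0.64 for Adra1b, 1.45 for Adcy5, 3.15 for Pkia, -0.37 for Pkig, 0.48 for Prkaca and 1.31 for Prkar1a. Over MR at 10 weeks they were 1.49 for Adrb1, 2.26 for Adra1a, 0.53 for Adra1b, 1.51 for Adcy5, -0.71 for Adcy6, 3.90 for Pkia, -0.33 for Pkig and 1.32 for Prkar1a. Over MR at 20 weeks they were 1.39 for Adrb1, 1.72 for Adra1a, 1.15 for Adcy5, 2.74 for Pkia, -0.41 for Pkig and 0.93 for Prkar1a. For MR at 20 weeks over MR at 2 weeks, Prkaca had 0.62.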

How the results depend on the processing

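Of the 9 genes, 7 were called at 40 weeks against Sham in all 10 fits that left out 1 library. Over all genes tested, these fits called from 4035 of 10105 to 4948 of 10094. Of the other settings, 5 of 7 tested genes were called with a mean of at least 10 (Adrb1 and Adra1a were under it), 6 with median-ratio or TMM rescaling, in the joint fit and by edgeR, and 7 with the rest. Over all genes, 2664 of 5444 were called with a mean of at least 10. The rest of these settings called from 4409 of 9984 to 4958 of 10094. The log2 fold change of Adcy6, the call that was lost, was -0.39, -0.37, -0.36 and -0.40 in the 4 settings that called 6. At 2, 10 and 20 weeks 0 of the 9 genes were called in every alternative run.

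Changes near 0 took the other sign in some settings. At 2 weeks Adcy6 had -0.24 and Pkia 0.23 with array weights, and Pkia had 0.010 by edgeR and 0.014 by DESeq2. At 10 weeks Prkaca had -0.058 with median-ratio rescaling, -0.051 with TMM, -0.027 with array weights, -0.048 in the joint fit, -0.057 by edgeR and -0.066 by DESeq2. At 20 weeks Adrb1 had 0.011 at pseudocount 5, 0.013 with median-ratio rescaling, 0.010 with TMM, 0.014 in the joint fit, 0.097 by edgeR and 0.11 by DESeq2. At 40 weeks, with median-ratio rescaling, TMM, the joint fit, edgeR and DESeq2 in turn, Adra1b had 0.15, 0.17, 0.18, 0.16 and 0.14 and Prkaca 0.089, 0.10, 0.11, 0.084 and 0.070.

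Leaving out 1 library in turn gave -0.083 to 0.45 for Adra1a, -0.20 to 0.34 for Adcy6, -0.63 to 0.22 for Pkia and -0.43 to 0.041 for Prkar1a at 2 weeks. At 10 weeks it gave -0.21 to 0.13 for Adrb1, -0.11 to 0.13 for Prkaca and -0.28 to 0.0075 for Prkar1a. At 20 weeks it gave -0.22 to 0.19 for Adrb1, -0.11 to 0.12 for Adra1b and -0.020 to 0.71 for Pkia, and at 40 weeks -0.14 to 0.072 for Adra1b and -0.21 to 0.011 for Prkaca. The count for MR at 20 against 2 weeks was 0 to 1. Between MR times Adra1b at 40 against 10 weeks kept its call in 3 of 10 such fits. The cause was not tested. Adrb1 and Adra1a rest on the fewest reads. No paired analysis was possible because the labels tie no MR library to a Sham library.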

Other observations

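The receptors shifted against each other within libraries. The ratio of Adra1a to Adra1b reads was 0.0897 ± 0.0297 in MR at 40 weeks and 0.0139 ± 0.0095 in Sham (SD, n = 5 each), and that of Adrb1 to Adra1b reads was 0.0888 ± 0.0239 in MR at 40 weeks and 0.0284 ± 0.0123 in Sham (SD, n = 5 each). Neither pair of ranges overlapped, with 0.0463 to 0.118 in MR at 40 weeks and 0.0083 to 0.0306 in Sham for the first ratio, and 0.0596 to 0.110 in MR at 40 weeks and 0.0181 to 0.0457 in Sham for the second. Earlier MR libraries did overlap those of 40 weeks. The first ratio reached 0.0483 in MR at 2 weeks. The second reached 0.0701 at 2 weeks, where it averaged 0.0571 ± 0.0148 (SD, n = 4), and 0.0630 at 20 weeks. Both ratios were computed after the levels had been seen and are given without a test.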
